A study of Mus musculus with 22 samples.

Results

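The effects of 2 culture media were compared by RNA sequencing of mouse fibroblasts undergoing reprogramming: one without basic fibroblast growth factor (bFGF) and one without vitamin C. The comparison rests on 4 of the 22 samples of the series, taken by their labels, namely the OSK libraries made without bFGF on days 3 and 7 and those made without vitamin C on days 3 and 7. OSK stands for the reprogramming factors Oct4, Sox2 and Klf4. All 4 samples were total RNA from embryonic fibroblasts (MEFs) at passage P2 that carried OG2, a transgene that reports Oct4 promoter activity by GFP, on a mixed strain background (1/2 129SVJ, 3/8 C57B6 and 1/8 CBA by the labels). They were transfected with OSK for 2 days, and the labels name neither the vector nor the rest of the medium. The medium without bFGF is not stated to lack vitamin C, nor the reverse, so the groups differ by an exchange of omissions and not by 1 omission. "Higher without bFGF" below therefore means the same as "lower without vitamin C". Each medium and day was 1 library (n = 1), and the 2 media were paired by day.

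bFGF, also called Fgf2, binds FGF receptors with heparan sulfate proteoglycans and signals mainly through the Ras and ERK kinases, whose output is held back by induced inhibitors such as the sprouty proteins and dual-specificity phosphatases. Vitamin C is a cofactor that keeps the iron of 2-oxoglutarate-dependent enzymes reduced, among them the prolyl and lysyl hydroxylases of collagen, the TET enzymes that oxidise methylated cytosine and the Jumonji histone demethylases. In fibroblasts given OSK, a mesenchymal programme of matrix and adhesion genes gives way to an epithelial one before the late pluripotency genes are switched on.

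The libraries without bFGF held 16509606 and 18732135 expected counts on days 3 and 7, and those without vitamin C held 7872294 and 12424318. A count of 0 is given here the upper limit of 3 counts, which is 0.196 and 0.155 CPM (counts scaled to library size) without bFGF and 0.375 and 0.232 CPM without vitamin C. Fits used 4 further libraries, OSK with no omission named and OSK without GSK3 inhibitors (GSK3i), each on days 3 and 7. Apart from medium, 3 properties separated the libraries. The pseudogene Rpl9-ps7 took 6.95% and 8.33% of the counts it shares with its parent gene Rpl9 in the libraries without bFGF (909 and 1091 counts), against 0% and 0.163% without vitamin C (0 and 12 counts). It took at most 0.387% without GSK3i and 4.91% and 5.14% in OSK. The pseudogene Rpsa-ps10, whose share of the counts of Rpsa is taken as a mark of technical sets, took 0.124% to 0.37% in all 4 libraries. It took 7.02% and 6.69% in OSK. The labels name no technical sets. The pseudogenes therefore group the libraries differently, and medium and the difference in Rpl9-ps7 cannot be told apart. Genes of low GC content were also lower without bFGF: the lowest of 5 groups by GC content deviated from the gene's mean over libraries by -0.53 and 0.01 (median log2) without bFGF and by 0.25 and 0.42 without vitamin C. Depth differed as well, as the totals show. The 12 fibroblast markers of the list, Col1a1, Thy1 and Pdgfra among them, were all tested and summed to 16700 and 8450 CPM without bFGF and 8540 and 3360 CPM without vitamin C. The sum includes collagens reported below and is no separate measure of fibroblast content. In the fit described next, 4 of the 12 were higher without bFGF and 0 lower, or 2 and 0 with the GC trend removed.

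In the fit over both days, some fibroblast matrix genes were higher without bFGF (11 of 37 collagens tested), and some epithelial (12 of 34) and mitotic (8 of 26) genes were higher without vitamin C. In bulk RNA, fewer cells of a type and less RNA per cell cannot be told apart. Of 14191 genes tested, 286 (2.02%) were higher and 710 (5.0%) were lower without bFGF by edgeR's quasi-likelihood test with Benjamini-Hochberg adjustment at 0.05. The error in this test is how differences between media change from day 3 to day 7, pooled over 4 media, and is not a spread between replicates. The shares of 2.02% and 5.0% are the background for counts of list members below. A single call in a list is not read as a result of that list. With the GC trend of each library removed, 88 genes (0.62%) were higher and 37 (0.261%) lower, so that the higher genes made up 70.4% of calls in place of 28.7% (63% with the values of the deposited series table). Of the 125 genes called with that correction, 115 had been called in the same direction without the correction and 0 in the opposite one. Without the no-bFGF library of day 3 only 3 genes were called, and without that of day 7 none, although 2573 genes had an unadjusted p under 0.05 in the latter fit. Adjusted p-values below come from this edgeR test of both days unless the GC correction is named, and each fitted difference is no bFGF minus no vitamin C on the log2 scale with its standard error (SE).

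The day 3 and day 7 ratios of the media ran together over the 11051 genes with at least 5 CPM in 1 of both libraries on each day (Pearson r 0.75, Spearman rho 0.72, a description across genes that share libraries and GC content). On day 3 alone 434 of 11325 genes (3.83%) were at least 2-fold higher and 1088 (9.61%) at least 2-fold lower without bFGF. On day 7 alone 423 of 11557 (3.66%) were higher and 645 (5.58%) lower. On both days 208 genes (1.88%) were higher and 313 (2.83%) were lower, while 2 (0.0181%) went in opposite directions. These counts of single libraries carry no test.

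**Figure D1:**
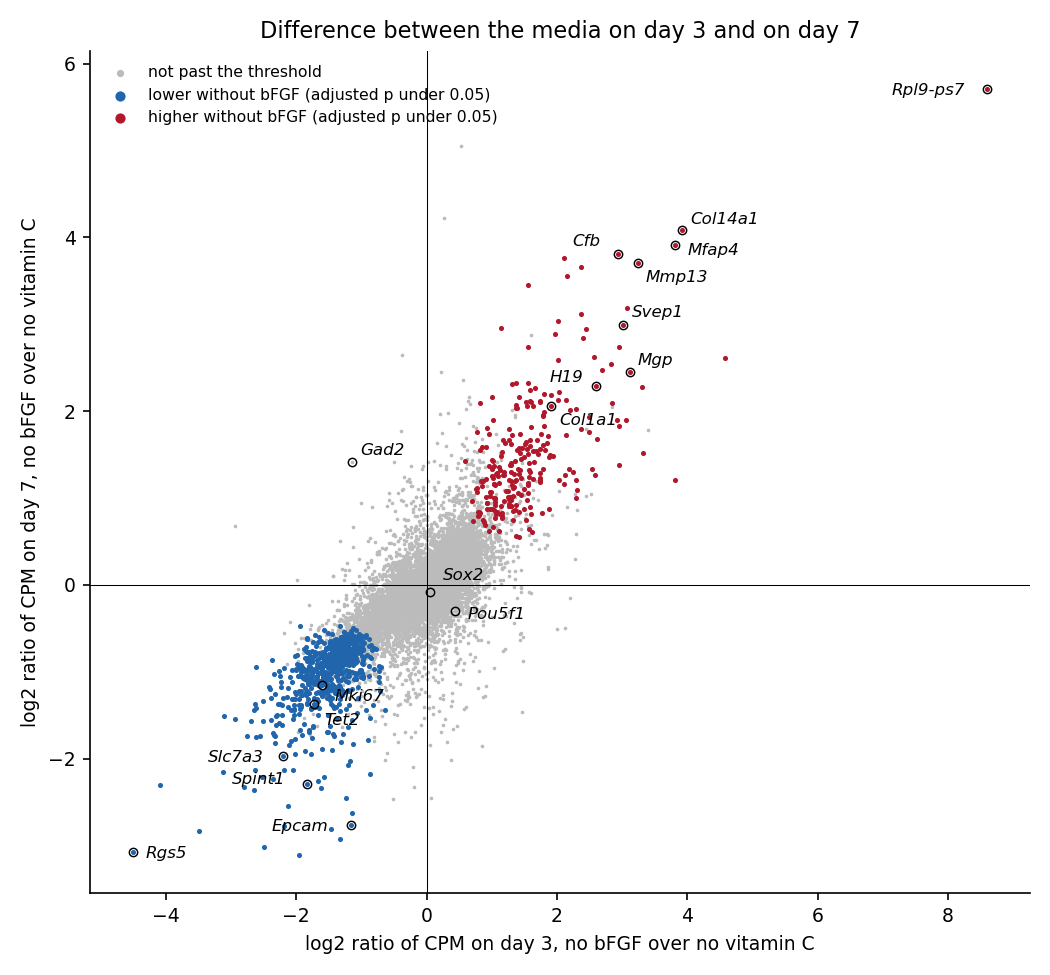
Each point is a gene with at least 5 CPM in 1 of both libraries on each day, at its log2 ratio of CPM (no bFGF over no vitamin C, prior count 2) on day 3 (x axis) and day 7 (y axis); colours mark genes past the threshold of the edgeR test over both days, and circles mark labelled genes. Col14a1 and Mmp13 lie far to the upper right and Slc7a3 to the lower left.

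None of the introduced factors passed the test. Pou5f1 (Oct4) stood at 79.5 and 81.7 CPM on days 3 and 7 without bFGF and at 58.6 and 100.4 CPM without vitamin C. Sox2 stood at 479 and 342 CPM without bFGF and at 463 and 363 CPM without vitamin C, and Klf4 at 1011 and 798 CPM against 795 and 700 CPM. The fitted differences were 0.12 (SE 0.44) for Pou5f1, -0.01 (SE 0.24) for Sox2 and 0.27 (SE 0.22) for Klf4, with adjusted p of 0.902, 0.987 and 0.503. The files do not separate transcripts of the transfected factors from those of the cell's own genes.

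The collagens, the main structural proteins of the matrix, were the pathway list with the highest median, 0.78 over 37 tested members against 0.02 over all genes tested. In this list 11 members were higher and 2 lower without bFGF. Col1a1 (chr11:94936224-94953042, plus strand, mm10), a chain of type I collagen, measured 2314 and 1335 CPM without bFGF and 619 and 321.7 CPM without vitamin C. Both values without bFGF lay above both values without vitamin C, and in each medium the day 7 library was the lower. The fitted difference was 1.98 (SE 0.24, adjusted p 0.00515, or 0.0268 with the GC trend removed). Col14a1 (chr15:55307750-55520803, plus strand), which codes for a collagen associated with fibrils, measured 23.1 and 33.9 CPM without bFGF and 1.38 and 1.86 CPM without vitamin C. The groups stood far apart, with 353 and 657 counts against 11 and 24, and the fitted difference was 4.12 (SE 0.33, adjusted p 0.00179). OSK, at 1.71 and 1.61 CPM, lay with the medium without vitamin C, and the medium without GSK3i lay between, at 8.32 and 10.8 CPM.

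Other chains of the fibril-forming and beaded-filament collagens followed the same direction. Col3a1, the type III chain, measured 4462 and 2771 CPM without bFGF and 2174 and 1070 CPM without vitamin C, a fitted difference of 1.21 (adjusted p 0.0234). Col5a1, which helps start type I fibrils, measured 492 and 380 CPM against 147.5 and 88.0 CPM, a difference of 1.93 (adjusted p 0.00589). Col6a2, a chain of the microfibrillar type VI collagen, measured 634 and 685 CPM against 165.8 and 245 CPM, a difference of 1.70 (adjusted p 0.00806). In each of the 3 genes the groups did not overlap. Here and below, such separation is described for genes picked by the test on the same values. It adds no support to the test, and its share over all genes was not counted. Col5a2, Col6a1, Col12a1, Col15a1, Col16a1 and Col24a1 were the other members higher without bFGF, with fitted differences from 0.94 to 2.68. Col25a1, a membrane collagen of neurons, was the clearest exception: 1.37 and 1.39 CPM without bFGF against 9.38 and 7.81 CPM without vitamin C (-2.61, adjusted p 0.00863). Col9a3 was the other lower member (-1.22, adjusted p 0.0453). With the GC trend removed, Col1a1, Col5a1 and Col14a1 remained higher and Col25a1 lower. Leaving out a library of the contrast left 1 (no bFGF day 3), 0 (no bFGF day 7), 4 (no vitamin C day 3) and 5 (no vitamin C day 7) collagens higher.

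Enzymes that remodel matrix had the same direction: 6 of 21 tested matrix metalloproteinases, inhibitors and related proteases were higher without bFGF and 0 were lower, with a median of 0.77. Mmp13 (chr9:7272514-7283331, plus strand), a collagenase, measured 39.0 and 44.2 CPM without bFGF and 4.00 and 3.25 CPM without vitamin C. The 95% Poisson intervals, which cover counting error only, ran from 36.0 to 42.3 and 41.2 to 47.2 CPM without bFGF and from 2.74 to 5.65 and 2.34 to 4.39 CPM without vitamin C. Its fitted difference was 3.54 (SE 0.30, adjusted p 0.00179), and 4.01 (adjusted p 0.00456) with the GC trend removed. OSK (4.67 and 3.36 CPM) and the medium without GSK3i (4.36 and 3.22 CPM) matched the level without vitamin C, so that among these 8 libraries Mmp13 was high in the 2 without bFGF alone. Mmp2, a gelatinase, measured 536 and 492 CPM against 177 and 139 CPM (1.71, adjusted p 0.00589). The other members higher without bFGF were Mmp14, Timp2, Adamts2 and Adamts5, with fitted differences from 0.93 to 2.08. Mmp2 and Mmp13 remained with the GC trend removed. The calls in this list fell to 1 and 0 without the no-bFGF library of day 3 or day 7, and to 3 without either library lacking vitamin C.

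The upstream sequences of 3 genes with different behaviour are shown with the motifs found in them: Mmp13 and Fos, both higher without bFGF, and the tight-junction gene Cldn4, lower without bFGF. Each is the 250 bases before the RefSeq start (GRCm38.p6), read 5′ to 3′ along the gene: chr9:7272264-7272513 (plus strand) for Mmp13, chr12:85473640-85473889 (plus strand) for Fos and chr5:134946935-134947184 (minus strand) for Cldn4. Capitals mark matches on either strand to 4 motifs, the AP-1 site TGANTCA, the cAMP response element TGACGTCA, the CCAAT box CCAAT and the TATA box TATAAA, and no 2 matches overlap in these windows.
Mmp13: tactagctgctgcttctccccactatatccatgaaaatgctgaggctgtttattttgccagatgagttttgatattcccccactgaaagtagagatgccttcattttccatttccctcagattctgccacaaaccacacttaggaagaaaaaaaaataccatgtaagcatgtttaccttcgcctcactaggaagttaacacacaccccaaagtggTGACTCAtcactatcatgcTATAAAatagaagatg
Fos: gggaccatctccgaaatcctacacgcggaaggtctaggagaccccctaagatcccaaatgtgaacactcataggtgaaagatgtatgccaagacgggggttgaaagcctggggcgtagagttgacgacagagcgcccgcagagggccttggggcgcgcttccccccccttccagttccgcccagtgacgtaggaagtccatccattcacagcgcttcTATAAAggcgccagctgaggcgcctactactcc
Cldn4: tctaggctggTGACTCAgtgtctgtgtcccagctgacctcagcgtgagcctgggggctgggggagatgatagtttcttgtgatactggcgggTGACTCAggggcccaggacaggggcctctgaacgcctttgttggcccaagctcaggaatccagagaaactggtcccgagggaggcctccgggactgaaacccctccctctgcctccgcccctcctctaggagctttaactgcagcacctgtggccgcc
In Mmp13 the AP-1 match began 35 bases and the TATA match 16 bases before the start. Fos, which codes for a subunit of the AP-1 factor, held a TATA match 33 bases before its start. Cldn4 held AP-1 matches 240 and 158 bases before its start, though its level went the other way from that of Mmp13. Of 32851 such windows in the RefSeq table, 6.75% held the AP-1 letters, 12.4% the TATA letters, 33.8% CCAAT and 1.55% the cAMP response element. A match is a stretch of letters and not a measured binding site. The 3 genes shown were picked from more that were searched, and no AP-1 match lay in the other windows found. Those of Spint1, Epcam and Tet2, genes lower without bFGF, held no match to any of the 4 motifs. Dusp1 held a cAMP response element, and some windows of Egr2 held a CCAAT box.

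Fibroblast and mesenchymal genes gave 8 higher members of 35 tested and 0 lower without bFGF, with a median of 0.64. Pdgfrb, the beta receptor of platelet-derived growth factor, measured 122 and 127 CPM without bFGF and 26.4 and 31.4 CPM without vitamin C. Both days lay apart by medium, and the fitted difference was 2.10 (SE 0.30, adjusted p 0.0071). Mfap4, a microfibril-associated glycoprotein, measured 12.6 and 10.3 CPM against 0.75 and 0.54 CPM, a difference of 4.15 (SE 0.50, adjusted p 0.00515). Dpt, Mfap5, Eln, Sparc, Fap and Gli1 were the other higher members, all of them matrix or fibroblast genes except Gli1, a target and effector of hedgehog signalling (2.37, adjusted p 0.0136). The regulators of the mesenchymal state Twist1, Snai1, Snai2, Zeb1 and Zeb2 were in the list and were not called. With the GC trend removed, Mfap4, Mfap5 and Fap remained higher and Dcn, a collagen-binding proteoglycan, was also called. Without either no-bFGF library edgeR called 0 of the list, and without the day 3 or day 7 library lacking vitamin C it called 4 and 5.

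The same direction held for markers of contractile and TGF-beta-responsive cells. Of 18 tested TGF-beta target genes 5 were higher and 0 lower: Cyr61, Tgfbi, Tagln, Acta2 and Pmepa1, with differences from 0.92 to 1.90. Tgfbi, a secreted matrix protein, measured 123 and 231 CPM without bFGF and 41.1 and 53.3 CPM without vitamin C. Acta2 and Tagln also belong to the smooth muscle contractile list, in which 3 of 12 tested members were higher (Myl9 being the other one). None of these TGF-beta and contractile genes passed the threshold with the GC trend removed, although the fitted differences stayed positive (0.71 to 1.71 in the TGF-beta list). By limma on log2(TPM + 1) and on the deposited series table, 0 members of either list were called. Fitted on the 6 omission libraries, edgeR called 6 TGF-beta members higher and 2 lower.

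**Figure D2:**
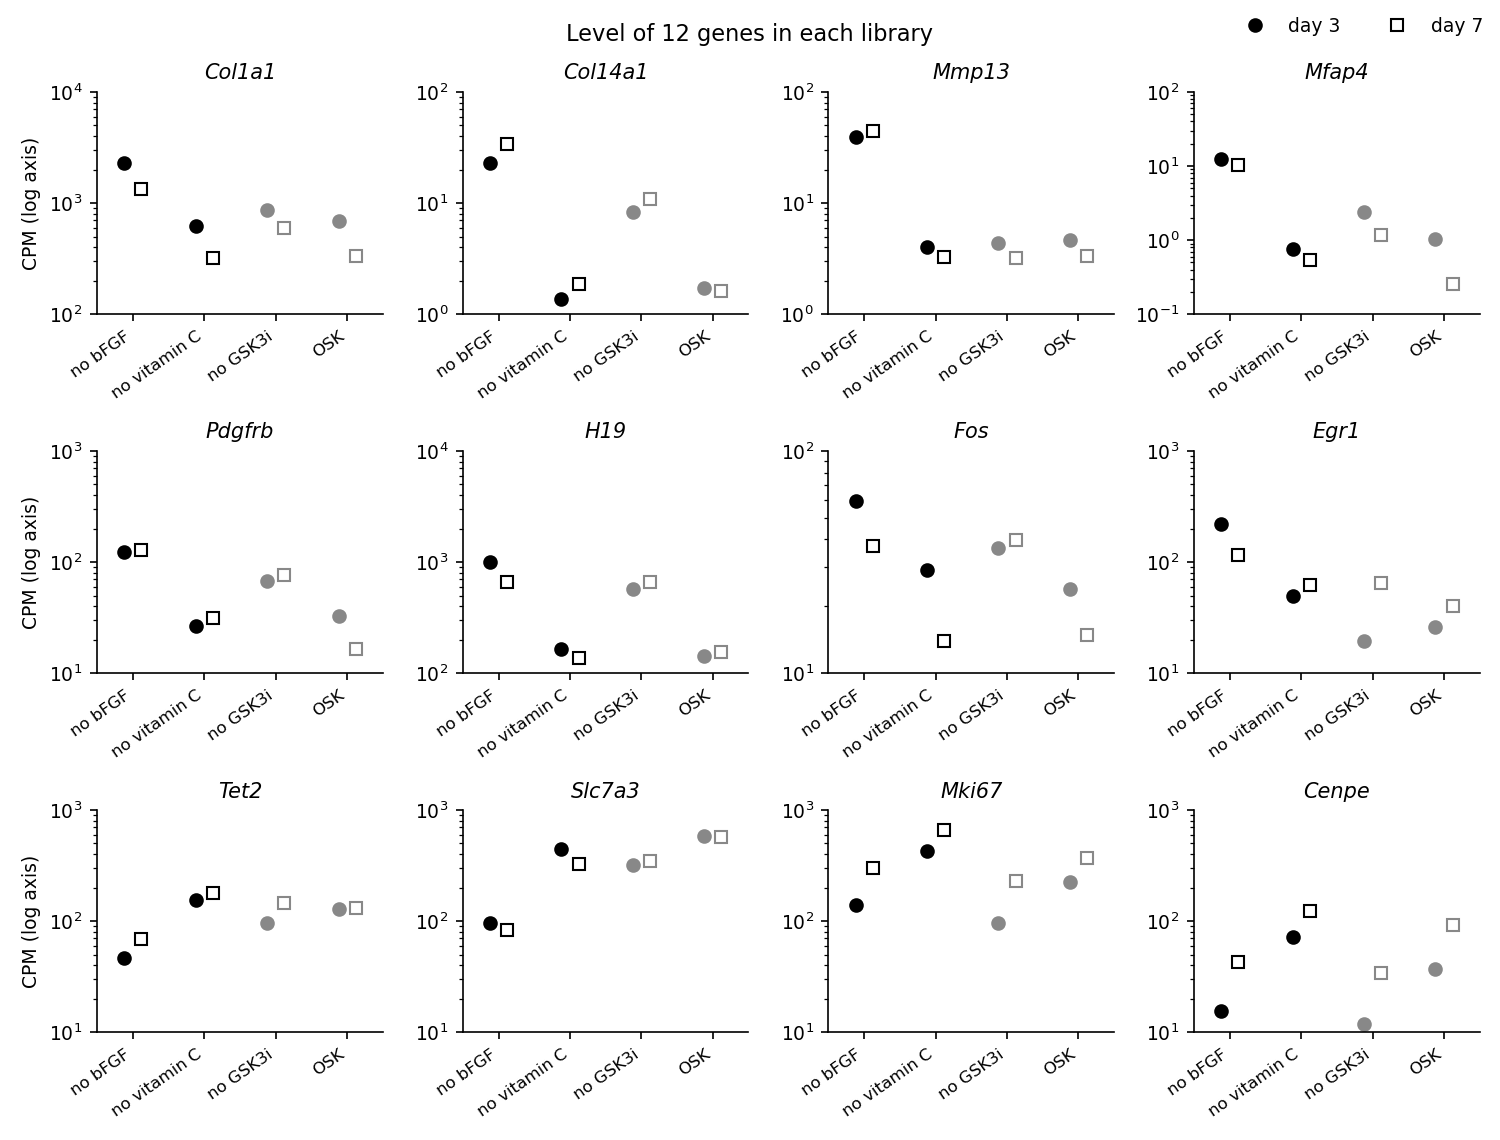
CPM of 12 genes (log axis, each panel with its own range) in 1 library per medium and day, with day 3 as filled circles and day 7 as open squares; black marks the 2 media compared, grey the medium without GSK3i and OSK. Col1a1, Mmp13, Mfap4, Pdgfrb, H19 and Fos are higher without bFGF than without vitamin C on both days, whereas Tet2, Slc7a3, Mki67 and Cenpe are lower.

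Of 29 tested feedback and target genes of FGF and ERK signalling 3 were higher without bFGF and 0 were lower, with a median of 0.16, in the edgeR fit of 8 libraries. Fitted on the 6 omission libraries alone, edgeR called 1 member lower, Rasa2, a Ras GTPase-activating protein, at 16.2 and 34.5 CPM without bFGF and 35.8 and 49.6 CPM without vitamin C (-0.81, adjusted p 0.0585 with 8 libraries and 0.0154 with 6), and DESeq2 also called 1 lower. Fos measured 59.3 and 37.5 CPM without bFGF and 29.3 and 13.9 CPM without vitamin C (1.21, SE 0.28, adjusted p 0.0284). Dusp1, a phosphatase of the MAP kinases, measured 46.1 and 31.9 CPM against 23.1 and 15.1 CPM (1.04, adjusted p 0.0418), and Egr2, a zinc-finger factor of the immediate early response, 11.2 and 3.46 CPM against 2.38 and 0.774 CPM (2.19, adjusted p 0.0454). All 3 also stand in the immediate early list, where they were the only called members of 19. None of the 3 passed with the GC trend removed (adjusted p 0.12 to 0.145). By limma on log2(TPM + 1) and on the deposited series table, 0 members of the FGF and ERK list were called.

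Apart from Dusp1, the sprouty genes and phosphatases named next did not pass in either direction. Spry2 measured 104.4 and 90.9 CPM without bFGF and 73.3 and 81.0 CPM without vitamin C (0.35, adjusted p 0.39). Spry4 measured 143 and 166.6 CPM against 91.7 and 137 CPM (0.46, adjusted p 0.203), and Dusp6, the phosphatase specific to ERK, 112.6 and 85.1 CPM against 76.5 and 67.2 CPM (0.47, adjusted p 0.419). The ETS factors Etv4 and Etv5 had differences of -0.23 and 0.19 (adjusted p 0.643 and 0.661). Dusp4 had the most negative value among the 4 phosphatases of the list, with 34.8 and 10.5 CPM against 41.1 and 21.3 CPM (-0.60, adjusted p 0.262). The SE of these genes ran from 0.20 (Spry4) to 0.32 (Dusp6), so the values do not show that their levels were equal.

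On the side of ligands and receptors, 2 of 19 tested genes were higher without bFGF and 0 lower in the edgeR fit of 8 libraries. Both were glypicans, heparan sulfate proteoglycans of the cell surface that act as FGF co-receptors: Gpc1 at 177.5 and 187 CPM against 77.6 and 95.9 CPM (1.08, adjusted p 0.0137), and Gpc4 at 494 and 387 CPM against 221 and 134 CPM (1.34, adjusted p 0.0151). The groups did not overlap in either. Fgfr1, the receptor most often used in fibroblasts, measured 349 and 285 CPM against 183 and 217 CPM (0.67, adjusted p 0.099). Fitted on the 6 omission libraries, edgeR called 6 members of this list higher and 0 lower. Fgfr1 (adjusted p 0.0247), the receptor Fgfr4 (0.0206) and the glypican Gpc3 (0.00693) were among them. Fgf4, a ligand made by pluripotent cells, measured 4.97 and 5.99 CPM against 3.25 and 11.1 CPM, so that its order turned between the days. Gpc1 and Gpc4 did not pass with the GC trend removed (adjusted p 0.058 and 0.0707).

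Among the enzymes that depend on vitamin C, transcripts of the collagen hydroxylases and related enzymes had a median of 0.57 over 15 tested members. Of these 12 had positive and 2 negative fitted differences, and 11 had an unadjusted p under 0.05 (3184 of all 14191 genes). In the edgeR fit of 8 libraries 1 was higher and 1 lower without bFGF. DESeq2 called 3 higher and 1 lower. Fitted on the 6 omission libraries, edgeR called 6 higher and 1 lower, against 748 and 1542 of 13959 genes. Leprel1, a prolyl 3-hydroxylase, measured 8.50 and 7.80 CPM without bFGF and 3.38 and 2.86 CPM without vitamin C (1.39, adjusted p 0.0365). Plod2, a lysyl hydroxylase that acts on collagen telopeptides, went the other way, at 56.2 and 54.6 CPM against 121 and 89.1 CPM (-0.92, adjusted p 0.0478). P4ha1, a catalytic subunit of prolyl 4-hydroxylase, measured 58.6 and 60.1 CPM against 67.6 and 51.9 CPM (0.00, SE 0.21). The calls of Leprel1 and Plod2 did not hold with the GC trend removed (adjusted p 0.108 and 0.253). Of the genes of vitamin C uptake and recycling, 1 of 13 was called: Gsto2, which reduces dehydroascorbate, at 2.09 and 0.413 CPM without bFGF against 6.25 and 4.26 CPM without vitamin C (-2.26, adjusted p 0.0205, or 0.0524 with the GC trend removed).

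Tet2, which codes for a 5-methylcytosine dioxygenase, was higher in the medium without vitamin C. It measured 46.4 and 68.9 CPM without bFGF and 153.5 and 179 CPM without vitamin C. The groups did not overlap, and the fitted difference was -1.55 (SE 0.22, adjusted p 0.0071, or 0.0317 with the GC trend removed). OSK measured 128 and 131 CPM and the medium without GSK3i 95.5 and 146 CPM, so that the 2 libraries without bFGF were the lowest of the 8. The other TET genes were not called in the fit of 8 libraries: Tet3 measured 114 and 131 CPM against 118 and 130 CPM, and Tet1 4.97 and 14.1 CPM against 6.88 and 40.1 CPM (-0.98, adjusted p 0.179). Fitted on the 6 omission libraries, edgeR called 4 members of the list lower and 0 higher, with Tet1 (adjusted p 0.0297) among the lower ones. The maintenance and de novo methyltransferases Dnmt1 and Dnmt3a had differences of -0.02 and -0.08. In the fit of 8 libraries the other called member of this list of 13 was Trp53inp1 (-1.50, adjusted p 0.0116), a stress-response gene regulated by p53. It did not pass with the GC trend removed (0.299).

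Jumonji and related histone demethylases had 5 lower and 0 higher of 26 tested, namely Jmjd1c, Kdm4c, Kdm6a, Uty and Jhdm1d, and none passed with the GC trend removed. Uty lies on the Y chromosome, and 3 of the 5 genes of a sex-chromosome list (Ddx3y, Eif2s3y and Uty) were lower without bFGF, with a median of -1.24 over the list that became -0.45 with the GC trend removed. Germline genes held silent by promoter methylation reached testable counts in 9 of 47 cases, with 0 calls by DESeq2 and by edgeR on the 8 libraries and 1 unadjusted p under 0.05. That gene was Rec8, a meiotic cohesin subunit (-0.71, adjusted p 0.0849), which edgeR called lower on the 6 omission libraries (adjusted p 0.0199).

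Epithelial genes formed the list with the lowest median, -1.76 over 34 tested members, and all 34 fitted differences were negative. In this list 12 members were lower without bFGF and 0 higher. Epcam (chr17:87635979-87651129, plus strand), an adhesion molecule of epithelia and pluripotent cells, measured 7.06 and 30.2 CPM without bFGF and 16.0 and 205.7 CPM without vitamin C. The medium without vitamin C was the higher on each day, and its day 7 value was close to that of OSK (218 CPM). The fitted difference was -2.04 (SE 0.38, adjusted p 0.0158, or 0.0492 with the GC trend removed).

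Spint1, an inhibitor of membrane serine proteases, measured 1.504 and 16.1 CPM without bFGF and 5.75 and 79.5 CPM without vitamin C (-2.17, SE 0.29, adjusted p 0.00589). Cldn4, a claudin of tight junctions, measured 0.392 and 2.27 CPM against 1.13 and 23.8 CPM (-2.88, adjusted p 0.0101). Esrp1, an epithelial splicing regulator, had 0 counts on day 3 in both media and 22 against 255 counts on day 7, or 1.14 against 19.7 CPM. These genes were thus scarce on day 3 and separated on day 7. Grhl2, Cldn7, Crb3, Tjp3, Dsg2, Dsc2, Krt18 and Cgn were the other lower members, with fitted differences from -1.44 to -3.12. Cdh1, which codes for E-cadherin, did not pass: it measured 30.0 and 129 CPM against 37.9 and 324.5 CPM (-0.92, adjusted p 0.212). With the GC trend removed, Epcam, Grhl2, Cldn4, Crb3 and Spint1 remained called. Without either no-bFGF library 0 of the 12 calls were made by edgeR, without the day 7 library of the medium lacking vitamin C 1 was made, and without its day 3 library 10.

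**Figure D3:**
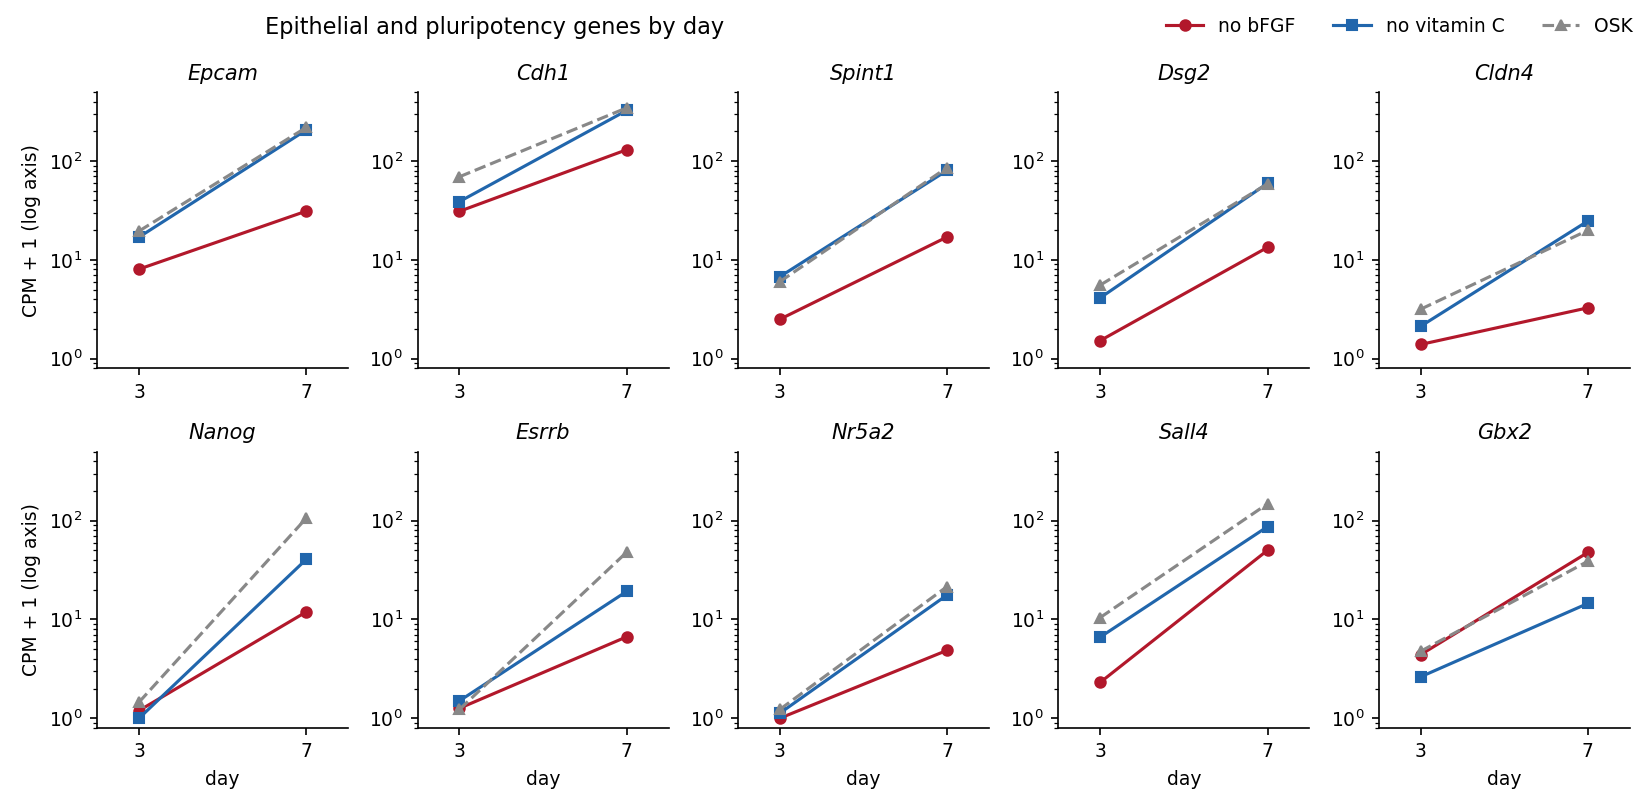
CPM plus 1 (log axis) on days 3 and 7 of 5 epithelial genes (top) and 5 pluripotency genes (bottom) in single libraries without bFGF (red circles), without vitamin C (blue squares) and in OSK (grey triangles, dashed). The red line ends lowest on day 7 in all panels except Gbx2, where the blue line does.

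Of the called pluripotency genes, all except Gbx2 were lower without bFGF. Of 20 early pluripotency genes tested 3 were lower without bFGF (Sall4, Epcam and Tet2) and 0 higher, and of 24 late ones 3 were lower and 1 higher. Sall4, a zinc-finger factor of the pluripotency network, measured 1.31 and 49.2 CPM without bFGF and 5.63 and 86.0 CPM without vitamin C (-1.21, adjusted p 0.0388). Nr5a2, an orphan nuclear receptor that can activate Oct4, had 0 counts on day 3 and 3.87 CPM on day 7 without bFGF, and 0.125 and 16.7 CPM without vitamin C (-2.14, adjusted p 0.0263). Klf2 and Rex2 were the other lower members (-1.39 and -1.91). Gbx2, a homeobox gene downstream of LIF and STAT3, went the opposite way, at 3.40 and 46.7 CPM against 1.63 and 13.5 CPM (1.52, SE 0.33, adjusted p 0.0234). Neither these 4 late genes nor Sall4 (adjusted p 0.104) passed with the GC trend removed.

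Nanog and Esrrb, core factors of the late network, did not pass the test. Nanog measured 0.196 and 10.9 CPM without bFGF and 0 and 39.7 CPM without vitamin C, against 105 CPM in OSK on day 7 (-1.63, adjusted p 0.0911). Esrrb measured 0.262 and 5.68 CPM against 0.5001 and 18.3 CPM, and 47.0 CPM in OSK on day 7 (-1.57, adjusted p 0.114). Both media therefore lay below OSK on day 7 in these genes, by values that carry no test. By its Rpsa-ps10 share OSK would belong to another technical set than both media, which the labels do not state. Dppa5a, a marker of the naive state, ended near the same level in both media, at 12.2 and 15.1 CPM on day 7, with 98.2 CPM in OSK.

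Genes of mitosis were lower without bFGF in 8 of 26 cases and higher in 0, with a median of -0.37. Mki67, the proliferation marker Ki-67, measured 140 and 298 CPM without bFGF and 426 and 662 CPM without vitamin C (-1.38, SE 0.23, adjusted p 0.0104). Cenpe, a kinetochore motor protein, measured 15.4 and 43.0 CPM against 72.1 and 122 CPM (-1.87, adjusted p 0.00589), and Cenpf, a kinetochore component, 20.6 and 60.1 CPM against 79.4 and 162 CPM (-1.70, adjusted p 0.00589). The groups did not overlap in Mki67; in Cenpe and Cenpf likewise the day 7 value without bFGF stayed under the day 3 value without vitamin C. Top2a, Bub1, Kif11, Ttk and Ndc80 were the other lower members. With the GC trend removed, Mki67, Cenpe and Cenpf remained. Of the list, 0 members were called by edgeR without either no-bFGF library and 2 without the day 3 library lacking vitamin C. Genes of DNA replication did not follow: 1 of 30 was lower (Pola1), against 5.0% of all genes tested, 0 were higher and the median was 0.02.

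The p53 target and senescence list had 6 lower and 0 higher of 24 tested, with a median of -0.10. Among its lower members were Ccng1, at 435 and 362 CPM without bFGF and 1048 and 636 CPM without vitamin C (-1.06, adjusted p 0.026), and Pmaip1, which codes for the pro-death protein Noxa (-1.67, adjusted p 0.0332). Cdkn1b, Perp, Trp53inp1 and Eda2r were the others, and 0 of the 6 passed with the GC trend removed.

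Among 23 tested imprinted genes outside the Dlk1-Meg3 cluster 2 were higher without bFGF, H19 and Cdkn1c, and 0 were lower. H19 (chr7:142575529-142578143, minus strand), a maternally expressed long noncoding RNA that limits growth, measured 999 and 668 CPM without bFGF and 165 and 136.5 CPM without vitamin C. The groups did not overlap, and the fitted difference was 2.46 (SE 0.26, adjusted p 0.00515, or 0.0193 with the GC trend removed). The level without GSK3i (567 and 669 CPM) was near that without bFGF, while OSK (144 and 157 CPM) was near that without vitamin C. Cdkn1c, a maternally expressed inhibitor of cyclin-dependent kinases on the same chromosome, measured 55.8 and 47.8 CPM against 11.3 and 11.6 CPM (2.19, adjusted p 0.00515). Igf2, also on that chromosome, was not called but had the same direction, at 774 and 303 CPM against 312 and 74.8 CPM (adjusted p 0.0849). Of the 23 fitted differences 12 were positive and 11 negative. In the Dlk1-Meg3 cluster, whose imprinting in reprogrammed cells has been tied to vitamin C, 2 of 7 genes were called, in opposite directions. Dlk1 measured 13.7 and 14.7 CPM against 6.75 and 3.17 CPM (1.58, adjusted p 0.0327), and Rtl1 17.3 and 2.84 CPM against 48.5 and 9.05 CPM (-1.56, adjusted p 0.0218). Neither passed with the GC trend removed (adjusted p 0.129 and 0.0552). Meg3, the maternally expressed RNA of the cluster, measured 111 and 226 CPM against 167.5 and 301 CPM (-0.50, adjusted p 0.334).

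Further lists are given against shares of 2.02% higher and 5.0% lower over all genes tested. In the hypoxia and NRF2 lists, 1 call in a direction is near those shares and is not read as a result of the list. Wnt targets had 2 higher of 17 (Tcf7 and Nkd2), interferon-response genes 3 of 33 (Ifit3, Isg15 and Zbp1), and cytokines and chemokines 3 of 17 (Cxcl14, Ccl8 and Csf1), each with 0 lower. In each of these lists the higher calls lay above the share of 2.02%, and the medians were 0.65, 0.37 and 0.72. At least 2-fold higher on both days were 5 of 11, 1 of 30 and 3 of 11 members with 5 CPM, against 1.88% of all genes. Ccl8, a monocyte chemoattractant, measured 112 and 54.9 CPM without bFGF and 34.6 and 17.2 CPM without vitamin C (1.69, adjusted p 0.00589). Iron-handling genes divided into 3 higher (Cp, Steap3 and Steap4, which bind or reduce metal ions) and 2 lower (Tfrc, the transferrin receptor, and Ireb2, the iron-responsive element binding protein) of 18. Cp and Steap4 passed with the GC trend removed and the 2 lower genes did not. Hypoxia-response genes had 2 higher (Egln3 and Hk2) and 1 lower (Plod2) of 27, and NRF2 targets 1 higher (Sod3) and 1 lower (Gsta1) of 31. The lists of cholesterol synthesis, MHC class I presentation and endoplasmic reticulum stress had 0 called members of 26, 14 and 21 by edgeR on the 8 libraries. In that fit their members with an unadjusted p under 0.05 numbered 3, 3 and 6, and DESeq2 called 1, 1 and 2 members. On the 6 omission libraries edgeR called 0, 4 and 4 members higher and 2, 0 and 2 lower. With the GC trend removed, no call of the Wnt, hypoxia and NRF2 lists passed (adjusted p 0.069 for Tcf7, 0.077 for Nkd2, 0.153 for Egln3, 0.138 for Hk2, 0.253 for Plod2, 0.0589 for Sod3 and 0.0577 for Gsta1). Of the interferon and cytokine calls named above, Ifit3 and Ccl8 passed, and Isg15, Zbp1, Cxcl14 and Csf1 did not.

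**Figure D4:**
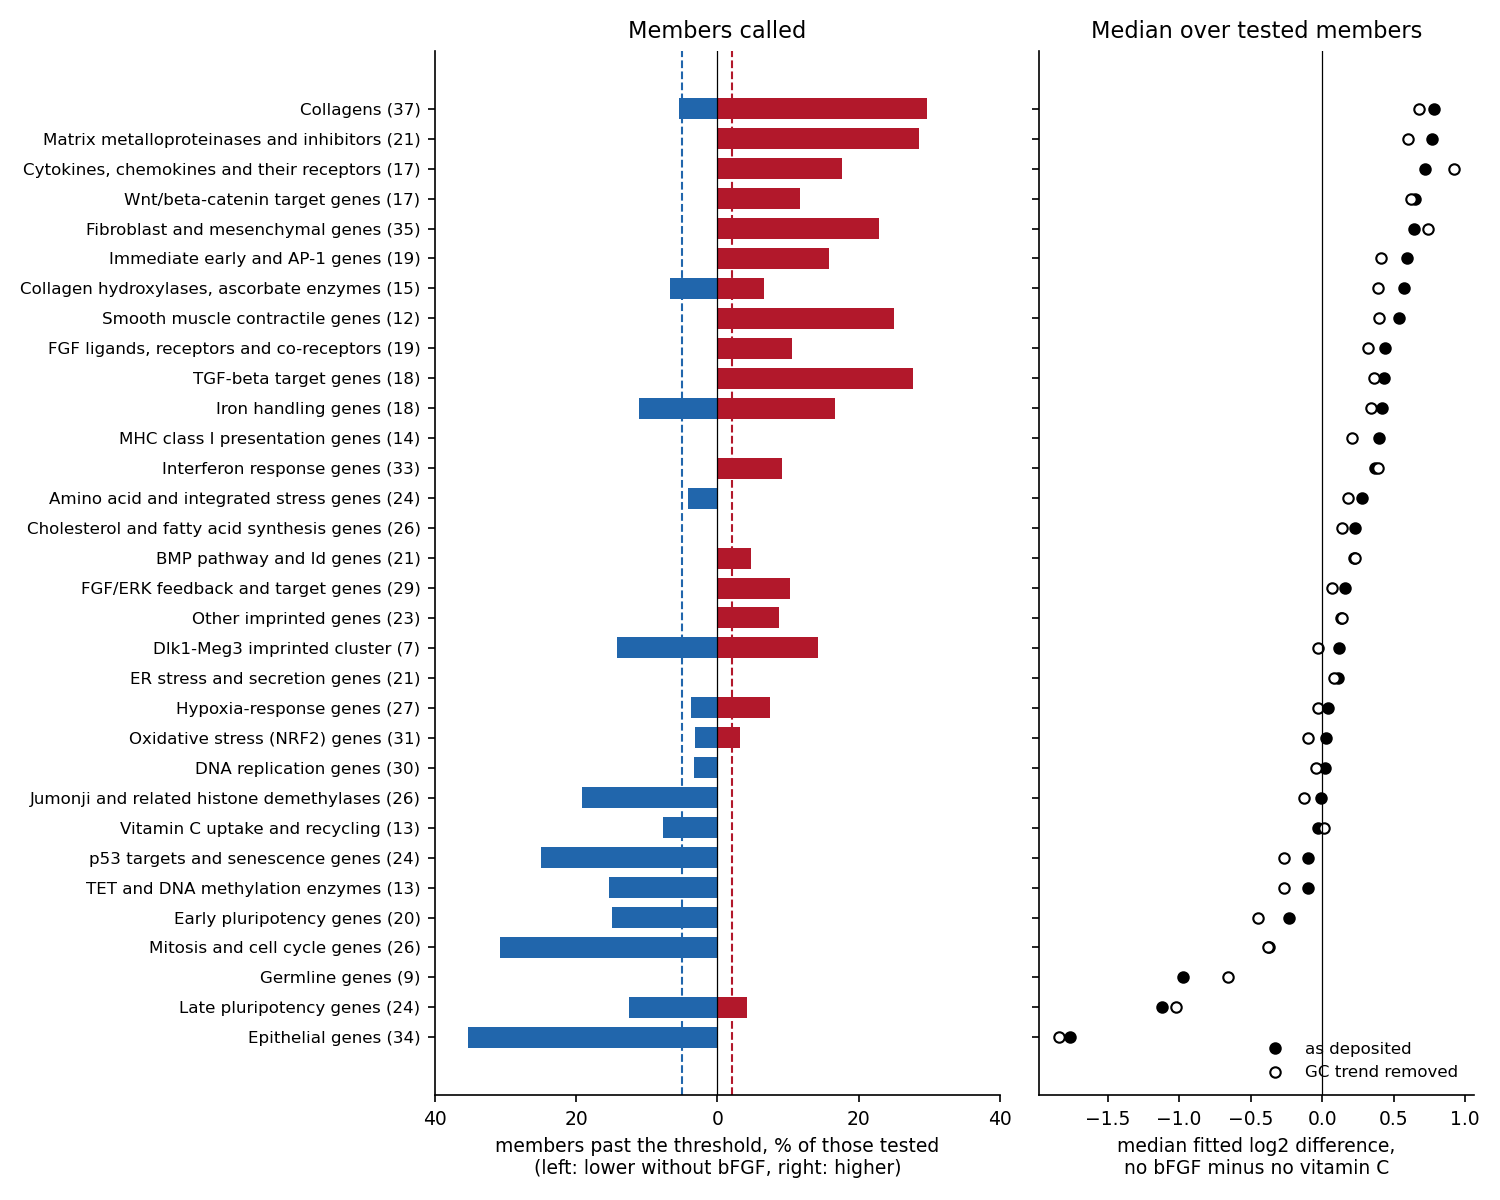
Gene lists with at least 7 tested members (number tested in brackets), ordered by median; left, the percent of tested members past the edgeR threshold, higher (red) and lower (blue) without bFGF, with the share over all genes tested as dashed lines (2.02% and 5.0%); right, the median fitted log2 difference as deposited (filled) and with the GC trend removed (open). Collagens stand at the top by the median as deposited, and epithelial genes have the lowest median on both scales.

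Some of the widest differences lay in genes of other functions. Slc7a3 (chrX:101079210-101086020, minus strand), a transporter of cationic amino acids, measured 96.7 and 83.9 CPM without bFGF and 444 and 329 CPM without vitamin C. It was 319 to 581 CPM in the other 4 libraries of the fit, so that the 2 libraries without bFGF stood alone at the low end (-2.09, SE 0.23, adjusted p 0.00515, or 0.0193 with the GC trend removed). Cfb, complement factor B, measured 27.0 and 89.7 CPM without bFGF and 3.38 and 6.27 CPM without vitamin C (3.498, adjusted p 0.00258). Rgs5, a regulator of G-protein signalling typical of pericytes, measured 1.24 and 0.620 CPM against 31.5 and 6.34 CPM (-4.09, adjusted p 0.00589). Esm1, a proteoglycan secreted by endothelial cells, measured 0.392 and 0.0516 CPM against 11.0 and 1.70 CPM (6 and 1 counts against 88 and 22; adjusted p 0.00589). Both fell from day 3 to day 7 in each medium. The endothelial marker list itself had 0 called members of 7 tested, with sums of 143 to 154 CPM without bFGF and 149 to 169 CPM without vitamin C.

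The cartilage and bone list had the most calls among marker lists of other cell types, 2 higher and 1 lower of 7 tested, with sums of 382 and 302 CPM without bFGF and 433 and 574 CPM without vitamin C. Mgp, a mineralisation inhibitor, and Col2a1, a cartilage collagen, were the higher members (2.87 and 1.27) and Spp1, or osteopontin, the lower one (-1.77). With the GC trend removed Mgp still passed (adjusted p 0.0309), and Col2a1 and Spp1 did not. Epidermal markers, which ran with the epithelial genes, summed to 117 and 79.3 CPM without bFGF and 186 and 201 CPM without vitamin C. Their median was -1.72 over 10 tested, 9 of them negative. Only 3 members of the list reached 5 CPM on day 3 and 4 on day 7. Perp, a desmosome protein, was the 1 member called (-0.91, adjusted p 0.0387, or 0.102 with the GC trend removed). Map2, a neuronal microtubule-associated protein, was the 1 lower member of 15 neural markers (-1.77, adjusted p 0.00623), against 5.0% lower over all genes tested. With the GC trend removed the neural list also held 1 lower member. Macrophage markers summed to 41.2 to 78.6 CPM in the 4 libraries, with 0 of 7 called. Erythroid markers summed to 336 and 101 CPM without bFGF and 186 and 46.2 CPM without vitamin C, almost all of it the embryonic globin Hbb-y (0.98, adjusted p 0.0366). Hbb-y did not pass with the GC trend removed. Skeletal muscle markers summed to 198 and 238 CPM against 143 and 167 CPM, with Myh8, a perinatal myosin, as the 1 called member of 9 (2.39, adjusted p 0.0421, or 0.118 with the GC trend removed). The part of these cells in the differences above was not tested.

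GC content ran with the difference over all genes. Its Spearman rho with the fitted difference was 0.44 over 14088 genes, a description across genes. The lowest of 5 groups by GC content had a median of -0.61 with 560 genes lower and 19 higher of 2818, and the highest group a median of 0.19 with 23 lower and 69 higher. The trend was steeper on day 3 than on day 7: the lowest of 20 bins had medians of -1.19 and -0.67. Zinc-finger genes among the strongest lower calls, such as Zfp534 (8.04 and 15.1 CPM against 37.0 and 105 CPM) and Zfp808 (4.18 and 10.2 CPM against 18.8 and 60.0 CPM), did not pass with the trend removed (adjusted p 0.0849 and 0.0775). Medium and GC trend cannot be told apart, since each library has 1 medium.

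**Figure D5:**
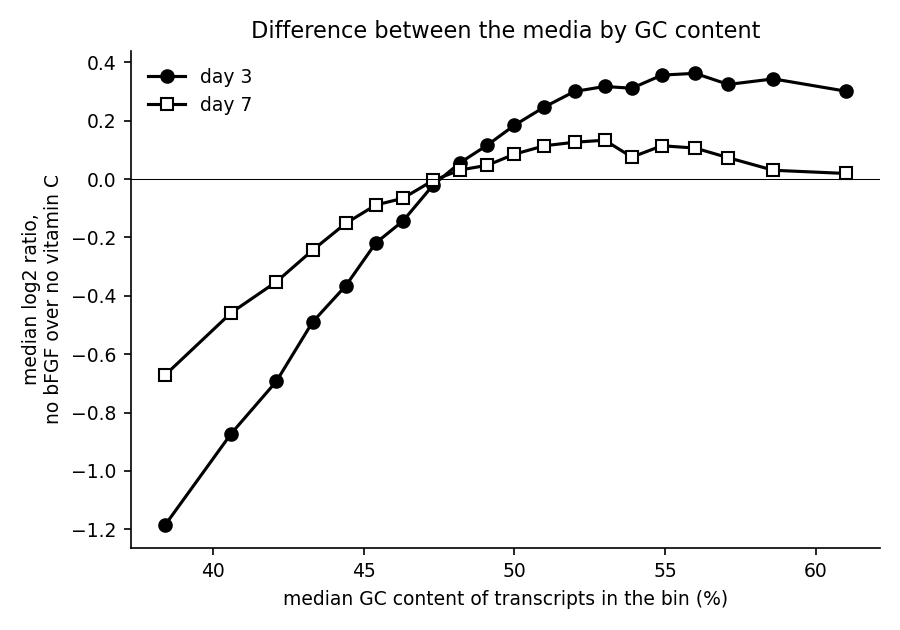
Median log2 ratio of CPM (no bFGF over no vitamin C, y axis) in 20 equal bins of tested genes by GC content of their transcripts (x axis, percent), on day 3 (filled circles) and day 7 (open squares). The lowest bin lies at -1.19 on day 3 and -0.67 on day 7, and the highest bin, at 61.0% GC, lies at 0.30 and 0.02.

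The called genes were also set against the other media of the fit, by mean log2 CPM over both days. Of the 286 genes higher without bFGF, OSK lay nearer to the medium without vitamin C for 247 (86.4%), and the medium without GSK3i lay nearer to that without bFGF for 165 (57.7%). Of the 710 lower genes, OSK lay nearer to the medium without vitamin C for 611 (86.1%), and the medium without GSK3i lay nearer to that without bFGF for 607 (85.5%). By Rpsa-ps10 (7.02% and 6.69%) OSK stood apart from both media, whereas by Rpl9-ps7 (4.91% and 5.14%) it was nearer to that without bFGF. The part of a technical set in the nearness of called genes was not tested. Over all 14191 genes tested OSK lay nearer to the medium without vitamin C for 64.4%. The medium without GSK3i lay nearer to that without bFGF for 61.9%. The GC trend ran the same way: genes of the lowest GC group deviated by -0.47 and -0.28 (median log2) without GSK3i and by 0.12 and 0.52 in OSK, and 560 of the 710 lower genes belonged to that group.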

How the data were processed

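Per the labels' protocols, RNA was extracted with Trizol and libraries were made with the TruSeq kit. The authors ran RSEM 1.2.4 with mm10, per the submitters' processing notes; no source used here names the aligner or strand setting. Per the file headers, the deposited library tables of 24130 genes hold expected counts, in which RSEM shares ambiguous reads among genes, and TPM, abundances per length scaled to a fixed sum. The deposited series table (12897 genes) was treated as a score, since its whole-number columns share 1 median and 1 maximum, and it entered 1 alternative only. That table gave 12897 symbols and the reference names 10788 more, while 445 identifiers had none.

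Expected counts were rounded and fitted with edgeR 4.0.16 (R 4.3.3): TMM scaling, filterByExpr, robust quasi-likelihood fits with day as a block over 8 libraries (OSK and the 3 omissions, days 3 and 7, 3 residual degrees of freedom), Benjamini-Hochberg adjustment over 14191 genes and a threshold of 0.05. The block pairs media by day, which the labels give. Each medium and day is 1 library. Single days used log2 ratios with a prior count of 2, a 2-fold limit and at least 5 CPM in 1 of both libraries. CPM are rounded counts scaled by library total and TMM factor. GC content was that of the longest GENCODE transcript, known for 99.3% of genes tested, and its trend in each library was removed by offsets in 20 bins. On simulated counts for this comparison over 14191 genes, the fit recovered 19 of 50 genes changed by 1 on the log2 scale, 43 of 50 by 1.5 and 48 of 50 by 2, with 11 false calls. Apart from the changed genes, all with a mean of at least 5 CPM, the simulated media had equal means on each day. The simulated counts held no GC trend or other difference between libraries, so these numbers do not give the rate of false calls in the real data. Alternatives also used limma 3.58.1 and DESeq2 1.42.0; tables and plots used python 3.11.15 with pandas 2.3.3 and matplotlib 3.10.9.

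Named genes are Pou5f1, Sox2 and Klf4, the 10 largest differences in each direction by fit and by the smaller of both days, up to 6 members per list by p, all tested members of 4 lists, the 5 largest single-day ratios in each direction, and up to 5 genes that turned between the days; other names were chosen after their values were seen. The members, the 33 gene lists and 14 marker lists were chosen with earlier results of these data known. Sequences are from RefSeq tables of build GRCm38.p6. The values of 1 gene are not reported here.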

Additional observations from a re-analysis of the deposited data

Results flagged for a closer look

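Gad2, which makes the transmitter GABA, stood out because the media differed at least 2-fold in opposite directions on the 2 days. It measured 22.0 and 17.6 CPM on days 3 and 7 without bFGF and 48.9 and 6.498 CPM without vitamin C, so that its log2 difference changed by 2.56 from day 3 to day 7. With 1 library each, this difference between days was not tested.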

How the results depend on the processing

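The counts of genes (286 higher, 710 lower) depended on the libraries in the fit. They were 748 and 1542 with the 6 omission libraries, 937 and 1606 with the 4 libraries of the contrast, 130 and 457 by limma on log2(TPM + 1), where the median of all genes was -0.11, 68 and 40 by limma on the series table, 88 and 37 with the GC trend removed, and 621 and 526 with that and the omission libraries, an alternative chosen after seeing the data. With no block for day, edgeR called 0 and 0 genes, with 1424 at an unadjusted p under 0.05. Leaving out 1 library gave 0 to 805 higher and 0 to 1550 lower: 777 and 1529 without OSK day 3, 805 and 1550 without OSK day 7, 3 and 0 without no bFGF day 3, 0 and 0 without no bFGF day 7, 69 and 123 without no vitamin C day 3, 113 and 433 without no vitamin C day 7, and 202 and 420 without no GSK3i day 7. DESeq2 size factors, the DESeq2 test and other filters stayed within 1.5 times. On day 3 alone the 434 higher genes became 674 at 1 CPM, 238 at 20 CPM, 70 at 4-fold and 256 by TPM, and the 1088 lower became 98 at 4-fold. On day 7 alone the 423 higher became 232 at 20 CPM and 83 at 4-fold, and the 645 lower became 1058, 326 and 99 at 1 CPM, 20 CPM and 4-fold. Of 115 named genes past the threshold, 33 remained with the GC trend removed and 0 without the day block. No named call reversed; Spred1, not called (-0.08), was called at 0.57 with the GC trend removed in the omission libraries. The cause of these shifts was not tested. Depth limits single libraries below about 0.4 CPM.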
